A study of Homo sapiens with 9 samples.

Results

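MYDGF and the receptors that hold it in the secretory pathway were followed through RNA sequencing of HK-2 cells, a human proximal tubule line transformed with papillomavirus. The 4 genes, MYDGF, KDELR1, KDELR2 and KDELR3, were taken by symbol from the 62703 genes of the count table, and all 4 passed the filter on low counts that left 18267 genes. MYDGF (myeloid-derived growth factor) is a secreted protein with a KDEL-like tail. The genes were picked with their levels in all 3 groups already known, so their levels and fold changes are given as a description, with no test.

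The series asks about MYDGF in kidney tubules and its relation to mitochondria in chronic kidney disease, and it holds 3 libraries in each of 3 groups. Cells of the MYDGF group (libraries 1, 3 and 4) overexpressed MYDGF from an adenovirus, made with the vector GV314, and received 5 µg/ml of aristolochic acid for 48 h. Cells of the aristolochic acid group (libraries 1, 4 and 6), given as wild type, received the same dose of this plant toxin, which forms DNA adducts in tubule cells, for 48 h. Untreated cells (libraries 1, 2 and 3), also given as wild type, had no aristolochic acid. The protocol gives 12 h of serum starvation and medium with 5% serum. No control vector is named for the aristolochic acid or the untreated cells, so MYDGF and the vector cannot be told apart as sources of a difference. Separate cultures are not stated for the libraries of a group, so every p-value rests on a spread between libraries that may be technical only. The cell line entry reads HK-2 for all 9 libraries, while the treatment text of MYDGF 3 and untreated 2 reads HK-3 and that of MYDGF 4 and untreated 3 reads HK-4.

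Library totals, given in 1e6 counts, were 13.0, 12.9 and 14.3 in the MYDGF group, 12.2, 12.9 and 10.9 with aristolochic acid and 12.7, 12.0 and 13.4 in untreated cells. All 5 epithelial markers (KRT8, KRT18, KRT19, EPCAM and CDH1) passed the filter, with a summed level of 1390 to 1413 CPM in the MYDGF group, 1575 to 1711 CPM with aristolochic acid and 1080 to 1121 CPM in untreated cells. CPM is the count scaled to a library of 1e6 counts, with TMM scaling. Of 10 renal tubule markers 6 passed, and PAX8, PAX2, LRP2 and SLC34A1 did not; the list summed to 26.4 to 26.8 CPM, 32.1 to 45.0 CPM and 17.5 to 19.9 CPM in the same order of groups. Leukocyte markers summed to 6.78 to 8.58 CPM, 9.31 to 14.4 CPM and 14.5 to 20.7 CPM in that order, with CD3E at 0 in all libraries. Endothelial markers summed to 3.59 to 4.14 CPM, 6.56 to 12.4 CPM and 0.984 to 1.26 CPM, and fibroblast markers to 12.9 to 14.9 CPM, 7.91 to 14.2 CPM and 10.1 to 12.7 CPM. The part of these marker levels in the results below was not tested. In bulk RNA, fewer cells of a type and less RNA per cell cannot be told apart.

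KDEL receptors are membrane proteins of the Golgi. They bind soluble proteins of the endoplasmic reticulum (ER) that have escaped with their KDEL or KDEL-like tail, and return them to the ER in vesicles coated with COPI. MYDGF carries such a tail and is held in the ER and Golgi of many cells, and part of it is secreted, as in the infarcted heart, where it is known as a factor that protects cardiac muscle and supports vessel growth. A loaded receptor is also known to signal at the Golgi through G proteins and Src family kinases. KDELR2 and KDELR3 are known to be induced when the unfolded protein response is active.

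The stretch before the start of each gene is shown because the unfolded protein response acts through short motifs there. The part of these motifs in the levels below was not tested. RefSeq gave an entry for 3 of the 4 genes, and KDELR2 did not match. The 250 bases before the start are printed 5′ to 3′ on the strand of the gene, from GRCh38.p14, at chr19:4670343-4670592 (minus strand) for MYDGF, chr19:48391552-48391801 (minus strand) for KDELR1 and chr22:38467846-38468095 (plus strand) for KDELR3. The last 20 bases for MYDGF and the last 18 for KDELR3 lie inside the gene span given in the count table. Capitals mark each CCACG, the part that ER stress elements share, on either strand (it reads CGTGG from the other strand), and in KDELR3 also the longer UPRE.
MYDGF: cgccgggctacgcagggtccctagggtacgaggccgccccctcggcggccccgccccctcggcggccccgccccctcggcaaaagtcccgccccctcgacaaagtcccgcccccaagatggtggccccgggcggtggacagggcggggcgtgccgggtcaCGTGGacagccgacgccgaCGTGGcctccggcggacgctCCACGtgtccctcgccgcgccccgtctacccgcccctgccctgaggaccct
KDELR1: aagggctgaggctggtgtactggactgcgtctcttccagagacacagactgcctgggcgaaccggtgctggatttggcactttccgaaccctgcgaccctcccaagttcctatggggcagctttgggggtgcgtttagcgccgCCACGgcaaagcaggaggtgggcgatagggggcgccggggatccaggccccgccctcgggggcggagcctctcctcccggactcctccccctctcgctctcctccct
KDELR3: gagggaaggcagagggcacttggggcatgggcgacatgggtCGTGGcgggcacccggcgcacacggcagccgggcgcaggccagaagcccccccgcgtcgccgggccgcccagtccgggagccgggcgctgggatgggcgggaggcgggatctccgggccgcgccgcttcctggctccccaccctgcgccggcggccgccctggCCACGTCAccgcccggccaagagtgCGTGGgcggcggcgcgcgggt

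CCACG occurred 3 times before MYDGF, 1 time before KDELR1 and 3 times before KDELR3, and at least once in 33.5% of the 35116 promoters of the table. The UPRE, an element bound by XBP1 and ATF6 and searched as TGACGTGG on both strands, occurred 1 time, before KDELR3, against 0.612% of all promoters. Its first base lay 46 bases before the start, on the opposite strand, and it overlapped 1 of the 3 CCACG. The ERSE (in 0.074% of promoters) and the ERSE-II (in 0.0513%), both of which join a CCAAT box to CCACG, the CARE element of ATF4 (TGATGNAA, in 3.14%) and the CCAAT box itself (CCAAT, in 32.0%) had no match in these 3 windows on either strand. GC content was 78.0% before MYDGF, 66.8% before KDELR1 and 80.0% before KDELR3, with 34, 17 and 35 CpG, against medians of 58.0% and 11 over the table.

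MYDGF itself checks the labels of the overexpression group. The gene (ENSG00000074842) spans chr19:4641374-4670362 on the minus strand, positions of the count table read as GRCh38, with 6 exons in its principal GENCODE 29 transcript. It stood at 662.9, 510.2 and 599.1 CPM in the MYDGF libraries 1, 3 and 4, against 104.9 CPM (library 1), 74.2 CPM (library 4) and 90.4 CPM (library 6) with aristolochic acid, and 124.8, 130.7 and 122.8 CPM in untreated cells. Every MYDGF library stood above all others, and every aristolochic acid library stood below all untreated ones. The means were 590.7 ± 76.7 CPM, 89.8 ± 15.4 CPM and 126.1 ± 4.11 CPM (SD, n = 3 each). MYDGF was thus 6.58-fold higher with the adenovirus than with aristolochic acid alone (log2 fold change 2.72, SE 0.135), rank 26 from the top among 18267 genes. It was 4.68-fold higher than in untreated cells (2.23, SE 0.133). With aristolochic acid alone its level was 0.712 of the untreated one (log2 fold change -0.49, SE 0.129). A count of MYDGF can come from the adenovirus or from the gene of the cell, and the table does not tell which.

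**Figure D1:**
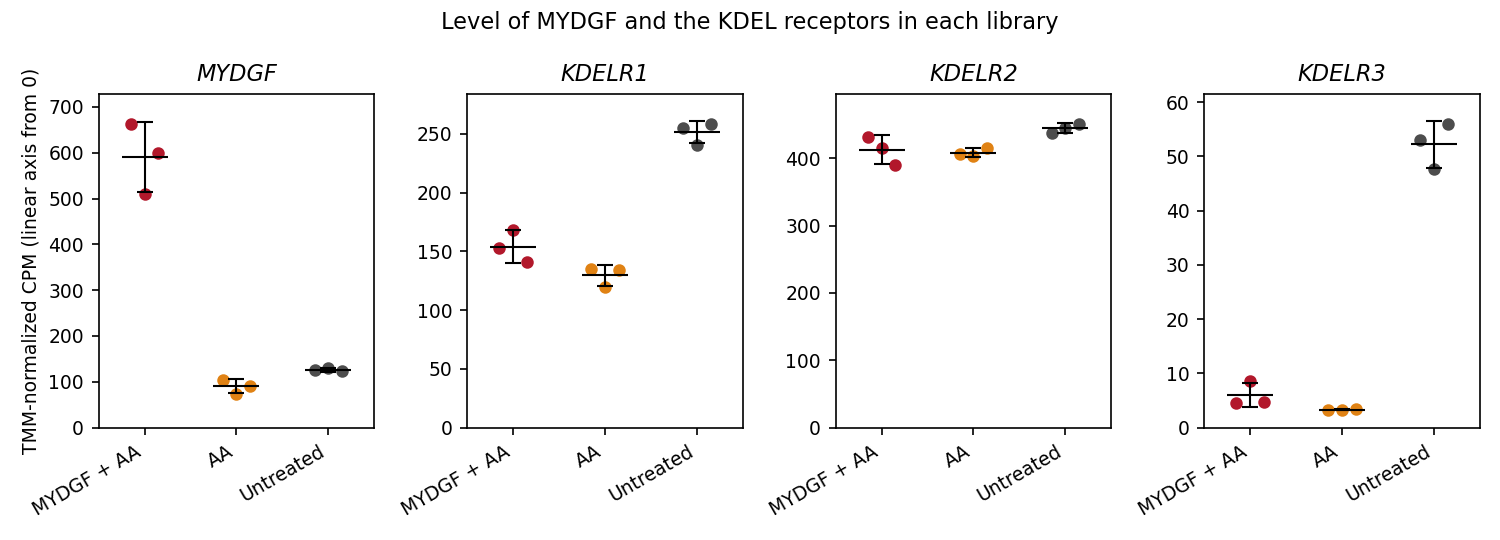
Level of each gene in every library, in TMM-normalized CPM on linear axes that start at 0. Points are libraries, bars the mean and SD of 3 libraries; AA is aristolochic acid. MYDGF stands at 510.2 to 662.9 CPM with the adenovirus, while KDELR3 stands at or below 8.59 CPM in all 6 treated libraries and at 47.6 to 56.0 CPM in untreated cells.

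The 3 receptors behaved unlike each other. KDELR1 (ENSG00000105438, chr19:48382575-48391551, minus strand, 5 exons), the receptor best known for Golgi signalling, stood at 153.0, 168.5 and 140.5 CPM in the MYDGF group, 135.0, 119.4 and 134.1 CPM with aristolochic acid and 255.0, 240.8 and 258.4 CPM in untreated cells. No pair of groups overlapped, with untreated cells highest and aristolochic acid lowest. The means were 154.0 ± 14 CPM, 129.5 ± 8.76 CPM and 251.4 ± 9.35 CPM (SD, n = 3 each). The level with aristolochic acid was 0.515 of the untreated one (log2 fold change -0.96, SE 0.081). The MYDGF group stood at 1.19 times the aristolochic acid group (0.25, SE 0.081) and at 0.613 of untreated cells (-0.71, SE 0.081).

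KDELR2 (ENSG00000136240, chr7:6445953-6484190, minus strand, 5 exons), the receptor whose loss in people causes a form of brittle bone disease, moved least. It stood at 432.1, 415.9 and 389.2 CPM in the MYDGF group, 405.6, 402.8 and 415.4 CPM with aristolochic acid and 436.9, 445.6 and 451.0 CPM in untreated cells. The treated groups overlapped each other, and both lay below the untreated libraries. The aristolochic acid level was 0.918 of the untreated one (log2 fold change -0.12, SE 0.051). The MYDGF group differed from aristolochic acid by 0.02 (SE 0.051; -0.02 with the size factors of DESeq2) and from untreated cells by -0.11 (SE 0.051) on the log2 scale; without MYDGF 4, its lowest library, the last value was -0.05.

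KDELR3 (ENSG00000100196, chr22:38468078-38483447, plus strand, 5 exons) had by far the largest difference of the 3. It was counted 60, 110 and 68 times in the MYDGF libraries 1, 3 and 4, against 41, 41 and 37 times with aristolochic acid and 669, 567 and 740 times in untreated cells. In CPM these are 4.59, 8.59 and 4.81 in the MYDGF group, 3.32, 3.17 and 3.40 with aristolochic acid and 53.0, 47.6 and 56.0 in untreated cells. The groups did not overlap, and MYDGF 3 stood apart within its own group. The aristolochic acid level was 0.0633 of the untreated one (log2 fold change -3.98, SE 0.231), rank 36 from the lowest of 18267 genes. The MYDGF group stood at 1.81 times the aristolochic acid group (0.86, SE 0.237) but at 0.115 of untreated cells (-3.12, SE 0.215). Without MYDGF 3 the difference from aristolochic acid was 0.52 (SE 0.130) and that from untreated cells -3.45.

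These groups were those of a series in which many genes differ. With aristolochic acid against untreated cells, 59.0% of the 18267 tested genes passed an edgeR adjusted p of 0.05 (Benjamini-Hochberg, quasi-likelihood test), and for 65.9% the groups had no overlap in CPM. All 4 members lay lower there without overlap, as did 33.0% of all genes. Between the MYDGF group and aristolochic acid 29.4% passed and 44.3% did not overlap; MYDGF, KDELR1 and KDELR3 lay higher without overlap, as did 22.5% of all genes. Between the MYDGF group and untreated cells 51.1% passed and 63.9% did not overlap; the 3 receptors lay lower without overlap, as did 31.1% of all genes, and MYDGF higher, as did 32.8%. Since the members were chosen on these values, nothing is read from their share. The median log2 fold change over all genes was -0.01, 0.01 and 0.02 in the 3 comparisons.

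Levels of different genes are set side by side per length, in the deposited FPKM (fragments scaled to a length and to library size). That length is not always that of the mRNA. HSPA5, of the cargo list below, stood at 682.3 CPM and 31.5 FPKM in MYDGF 1. These imply a length beyond its whole span of chr9:125234853-125241382. The same holds in MYDGF 1 for the cargo genes P4HB (546.7 CPM and 6.26 FPKM), HSP90B1 (877 CPM and 28.7 FPKM) and PDIA3 (419.6 CPM and 12.6 FPKM). The orders, sums and ratios below therefore rest on the lengths behind the deposited values. MYDGF was highest in its own group, at 282.1 ± 37.6 FPKM, followed by KDELR2 at 61.9 ± 3.57, KDELR1 at 35.5 ± 3.27 and KDELR3 at 2.12 ± 0.791 FPKM. With aristolochic acid KDELR2 was highest, at 61.7 ± 0.741 FPKM, followed by MYDGF at 43.2 ± 7.45, KDELR1 at 30.1 ± 2.0 and KDELR3 at 1.17 ± 0.0392 FPKM. In untreated cells KDELR2 stood at 66.2 ± 0.787 FPKM, MYDGF at 59.8 ± 2.16, KDELR1 at 57.5 ± 1.98 and KDELR3 at 18.3 ± 1.43 FPKM (SD, n = 3 each). MYDGF and KDELR1 overlapped in untreated cells (57.9 to 62.1 against 55.2 to 58.8 FPKM), and no other neighbours in these orders did.

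Summed over the 3 receptors, the FPKM was 102.3, 104.1 and 92 in the MYDGF group, 94.2, 89.9 and 94.6 with aristolochic acid and 142.6, 138.5 and 145.1 in untreated cells. The untreated libraries lay above all others, and the treated groups overlapped. The make-up of this sum differed as well. KDELR2 made up 62.3 ± 2.10% of it in the MYDGF group, 66.4 ± 1.31% with aristolochic acid and 46.6 ± 1.27% in untreated cells. KDELR1 made up 35.6 ± 1.37%, 32.3 ± 1.29% and 40.5 ± 0.600%, and KDELR3 2.12 ± 0.697%, 1.26 ± 0.00577% and 12.9 ± 0.721%, in the same order of groups (SD, n = 3 each). By these FPKM, both treated groups thus held mainly KDELR2 mRNA, with little KDELR3.

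MYDGF FPKM for each unit of summed receptor FPKM was 3.11, 2.34 and 3.09 in the MYDGF group, 0.538, 0.398 and 0.457 with aristolochic acid and 0.417, 0.448 and 0.399 in untreated cells. The overexpressing libraries lay above all others, and the other groups overlapped, since both MYDGF and the receptor sum were lower with aristolochic acid than in untreated cells. For comparison, the whole list of KDEL-tail cargo described below, without MYDGF, summed to 709.9 ± 37.8 FPKM in the MYDGF group, 652.2 ± 55.8 FPKM with aristolochic acid and 867.9 ± 4.05 FPKM in untreated cells (SD, n = 3 each). Cargo for each unit of receptor was 7.19, 6.40 and 7.91 in the MYDGF group, 7.56, 6.68 and 6.81 with aristolochic acid and 6.12, 6.26 and 5.96 in untreated cells. Each treated library thus stood above all untreated ones in cargo for each unit of receptor mRNA, by a small margin in MYDGF 3. TXNDC5, a gene of this list, stood at 9.6 FPKM in MYDGF 3, against 77.5 FPKM each in MYDGF 1 and 4, which lowers the cargo sum of MYDGF 3. Both sets of ratios are of mRNA, not of protein, and depend on the lengths behind the FPKM. Abundant cargo genes with overlong lengths weigh little in the cargo sum, such as P4HB, at 6.26 FPKM for 546.7 CPM in MYDGF 1.

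**Figure D2:**
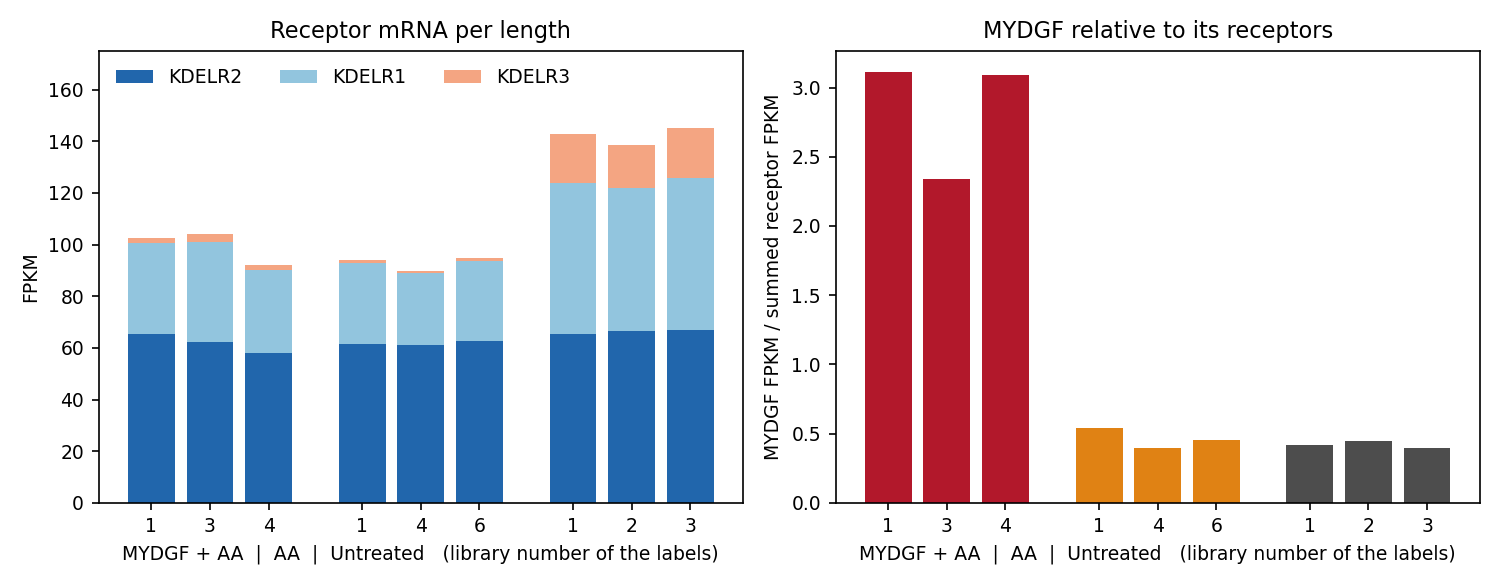
Left, FPKM of the 3 receptors stacked for each library, from 0; right, MYDGF FPKM divided by that sum. The receptor sum is 138.5 to 145.1 FPKM in untreated cells and 89.9 to 104.1 FPKM in the 6 treated libraries, and the ratio is 2.34 to 3.11 with the adenovirus and 0.398 to 0.538 in the other 6 libraries.

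The genes around the members were looked at because reads of overlapping genes may be shared, and neither the strand setting nor the counting of such reads is given. TNFAIP8L1, on the plus strand, overlaps MYDGF by 14195 bases. It averaged 19.1 ± 2.62 CPM in the MYDGF group, 8.46 ± 3.03 CPM with aristolochic acid and 53.9 ± 1.17 CPM in untreated cells (SD, n = 3 each). It fell with aristolochic acid against untreated cells (log2 fold change -2.67, edgeR adjusted p = 1.69e-05) and rose in the MYDGF group against aristolochic acid (1.17, edgeR adjusted p = 0.00519); the part of MYDGF reads in the second value was not tested. DPP9, 3.98 kb from MYDGF, rose with aristolochic acid (0.93, edgeR adjusted p = 3.92e-05) and had a log2 fold change of -0.07 between the MYDGF group and aristolochic acid.

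KDELR2 lies within the span given for DAGLB on the same strand, with 38238 shared bases. DAGLB, a lipase, averaged 63.6 ± 3.13 CPM in the MYDGF group, 75.4 ± 8.44 CPM with aristolochic acid and 40.9 ± 2.0 CPM in untreated cells, and rose with aristolochic acid (log2 fold change 0.88, edgeR adjusted p = 5.36e-05) where KDELR2 lay slightly lower. KDELR3 shares 10 bases with DDX17, an RNA helicase on the other strand. DDX17 averaged 485.2 ± 12.6 CPM in the MYDGF group, 503.1 ± 11.0 CPM with aristolochic acid and 942.8 ± 25.4 CPM in untreated cells (SD, n = 3 each) and fell with aristolochic acid (-0.91, edgeR adjusted p = 3.83e-06). On the other side of KDELR3, KCNJ4 at 12.9 kb rose to 1.73 ± 0.664 CPM with aristolochic acid, against 0.559 ± 0.101 CPM in untreated cells (1.61, edgeR adjusted p = 0.00367). Beside KDELR1, GRIN2D at 2.12 kb and TMEM143 at 18.5 kb had log2 fold changes of 0.52 and -0.29 with aristolochic acid against untreated cells, neither past the threshold.

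Across the 9 libraries, the genes nearest to each member in pattern were found by the root mean square difference of log2 CPM, centred on the untreated mean. For KDELR3 these were MICOS13 (0.26), IDNK (0.27), ATP1B2 (0.33), GDF11 (0.33) and CYB5D2 (0.37). MICOS13, a subunit of the complex that shapes mitochondrial cristae, averaged 5.77 ± 2.58 CPM in the MYDGF group, 2.88 ± 0.631 CPM with aristolochic acid and 39.5 ± 2.71 CPM in untreated cells. GDF11, a secreted growth factor of the TGF-beta family, averaged 5.53 ± 2.53, 1.71 ± 0.0615 and 35.5 ± 2.47 CPM in the same order (SD, n = 3 each). KDELR3 and all 5 of these genes had their highest value of the MYDGF group in MYDGF 3: centred log2 CPM was -2.58 there for KDELR3, against -3.46 and -3.40 in MYDGF 1 and 4, and -2.08 for GDF11, against -3.37 and -2.78. The 5 genes were picked by their likeness to KDELR3 over these same libraries, so the shared peak partly follows from the choice. MYDGF was lowest of its group in MYDGF 3.

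For MYDGF the nearest genes were IRX5 (0.34), PIDD1 (0.49), KISS1R (0.51), FLRT1 (0.55) and KCNC1 (0.55), which at each rank is farther than for the receptors. PIDD1, a death domain protein induced by p53, averaged 60.1 ± 3.15 CPM in the MYDGF group, 20.1 ± 1.71 CPM with aristolochic acid and 19.6 ± 1.70 CPM in untreated cells (SD, n = 3 each). IRX5, a homeobox factor, averaged 2.77 ± 0.509, 0.358 ± 0.111 and 0.504 ± 0.0504 CPM in the same order, on few counts. For KDELR1 they were CREG1 (0.05), MROH1 (0.05), PLD2 (0.06), USP20 (0.07) and PAM (0.07), and for KDELR2 TDP2, USP6NL and MICU2 (0.04 each) with ATXN1 and VCPIP1 (0.05 each). CREG1, a secreted glycoprotein, averaged 61.3 ± 7.73 CPM in the MYDGF group, 52.8 ± 4.06 CPM with aristolochic acid and 98.4 ± 3.51 CPM in untreated cells. PAM, an enzyme that amidates secreted peptides, averaged 231.0 ± 5.48, 208.2 ± 21.1 and 387.1 ± 4.92 CPM in the same order. With Pearson correlation in place of this measure, 1 of the 5 genes remained for KDELR1 (CREG1) and none for the other 3 members, so the names depend on the measure.

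**Figure D3:**
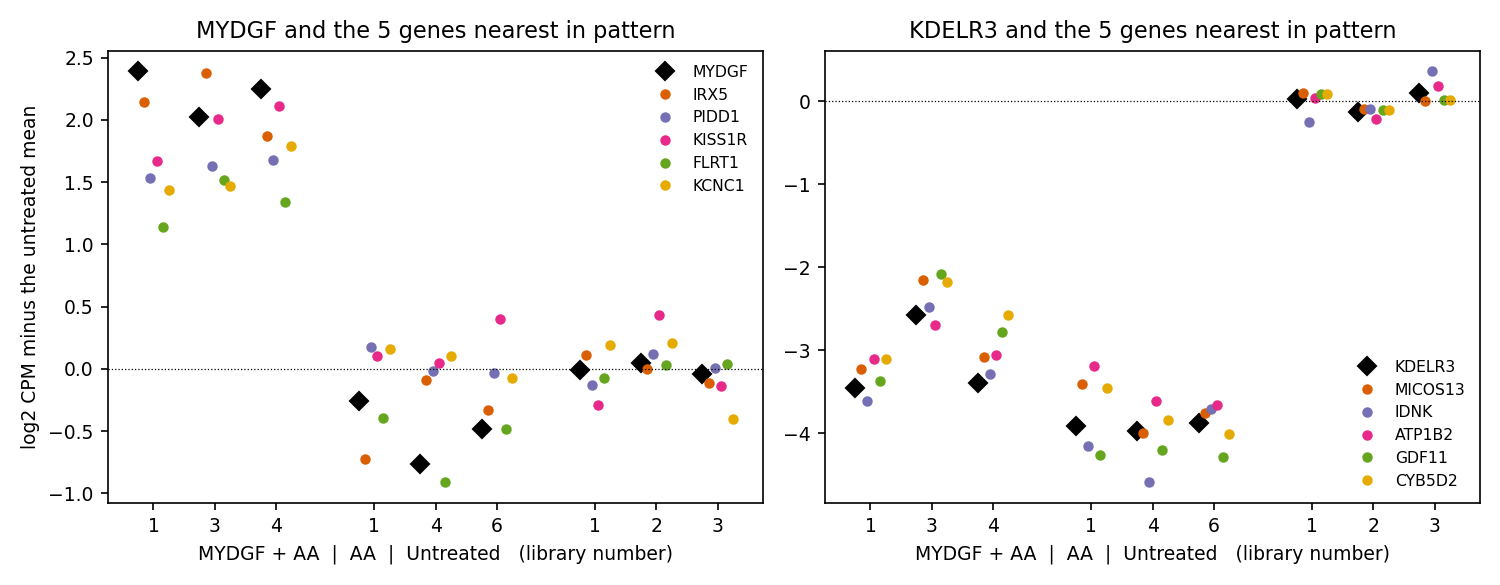
Log2 CPM minus the untreated mean for MYDGF (left) and KDELR3 (right), black diamonds, with the 5 genes nearest to each in pattern, coloured points, in each library. KDELR3 and its 5 genes lie between -2.08 and -4.59 in all treated libraries, with the highest value of the MYDGF group in library 3. The genes were picked by likeness over these same libraries.

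The rest of the retrieval route was described through 8 lists of 141 genes, of which 139 were tested and MZB1 and CREB3L1 were not. The lists were drawn up with earlier results of these data known, and the tails of the cargo list were not checked here. With aristolochic acid against untreated cells, 14 of the 139 rose and 67 fell, with a median log2 fold change of -0.30, while 29.7% of all tested genes rose and 29.3% fell. In the MYDGF group against aristolochic acid, 25 rose and 13 fell (median 0.05; 21 and 17 with the size factors of DESeq2 in edgeR), where 14.7% of all genes rose and 14.7% fell. That total of 38 moved with single libraries: it was 25 without aristolochic acid 4, 21 without aristolochic acid 6, 19 without MYDGF 3 and 22 without MYDGF 4. Over all 6 omissions it ran from 19 to 53. Calls over all tested genes moved as well, from 5379 to 3741, 3773, 3504 and 3640 in the 4 omissions named, in that order. Both comparisons use the aristolochic acid libraries, so their values are not independent.

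The cargo list holds 43 soluble ER proteins with a KDEL or KDEL-like tail, the proteins with which MYDGF shares its receptors. With aristolochic acid against untreated cells, 26 of the 42 tested fell and 2 rose (median log2 fold change -0.39), where 29.3% of all genes fell and 29.7% rose. FKBP10, a prolyl isomerase of collagen folding, fell most, to 6.16 ± 0.780 CPM with aristolochic acid, against 26.9 ± 1.61 CPM in untreated cells (log2 fold change -2.13, edgeR adjusted p = 5.26e-06). RCN3, a calcium-binding protein, fell by 1.55, PDIA5, a disulfide isomerase, by 1.37 and LRPAP1, the chaperone of LDL receptor family proteins, by 1.16 on the log2 scale. HSP90B1 (GRP94), a chaperone of the HSP90 family, stood at 750.1 ± 39.5 CPM with aristolochic acid, against 1169 ± 41.4 CPM in untreated cells (-0.64, edgeR adjusted p = 2.55e-05).

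CALR (calreticulin) fell by 0.51, MANF, a small ER protein that is secreted under stress, by 0.62, PDIA6 by 0.45 and HSPA5 (BiP) by 0.35 on the log2 scale, all past the threshold. PDIA4, a disulfide isomerase, fell to 409.8 ± 92.1 CPM with aristolochic acid, against 788.4 ± 37.3 CPM in untreated cells (SD, n = 3 each; -0.94, edgeR adjusted p = 0.000264). P4HB, SERPINH1 and CDNF did not pass the threshold, at -0.37, -0.10 and -0.30, nor did TXNDC5, at 0.14. The 2 that rose were RCN1 (0.76) and POGLUT1 (0.67); these 2, PDIA4 and TXNDC5 were named after their values were seen. KDEL-tail cargo and receptor sum were thus both lower with aristolochic acid than in untreated cells.

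In the MYDGF group against aristolochic acid, 11 of the 42 cargo genes rose and 1 fell (median 0.17), where 14.7% of all genes rose and 14.7% fell. This count of 12 was 5 without aristolochic acid 6 and 7 without each of MYDGF 1, MYDGF 3 and MYDGF 4, and ran from 5 to 18 over all 6 omissions. Calls over all genes, 5379 with every library, were 3773, 4486, 3504 and 3640 in the omissions named, in that order. FKBP10 averaged 11.9 ± 1.11 CPM in the MYDGF group and 6.16 ± 0.780 CPM with aristolochic acid (log2 fold change 0.95, edgeR adjusted p = 0.00159). UGGT2, a glucosyltransferase of glycoprotein quality control, rose by 0.50 (edgeR adjusted p = 0.00286) and MANF by 0.36 (edgeR adjusted p = 0.00592). HSPA5 averaged 720.3 ± 32.9 CPM in the MYDGF group and 588.2 ± 56.1 CPM with aristolochic acid (0.29, edgeR adjusted p = 0.0156), a call that was lost without MYDGF 3 (adjusted p = 0.0528) or MYDGF 4 (0.065). POGLUT1 was the gene that fell (-0.47). Against untreated cells, 2 cargo genes were higher in the MYDGF group and 19 lower (median -0.26), where 26.8% and 24.3% of all genes were.

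**Figure D4:**
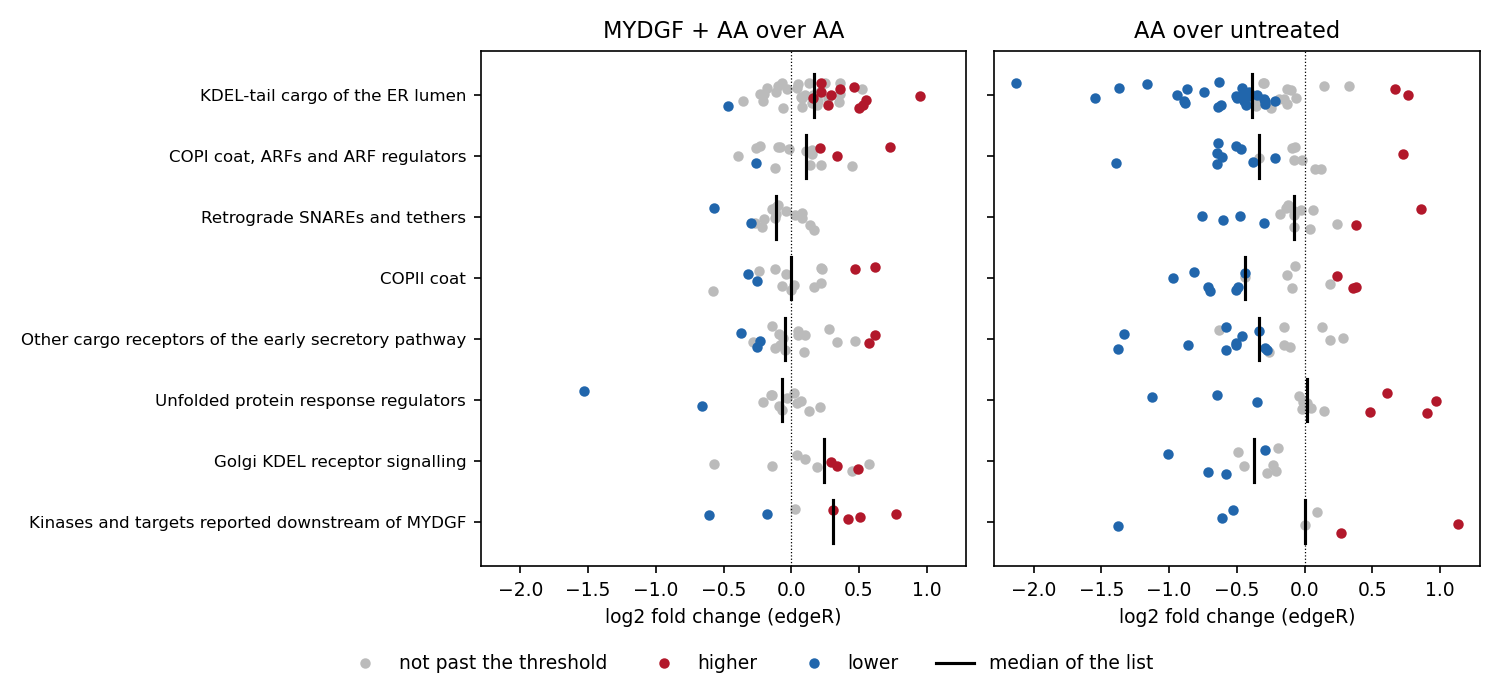
Log2 fold change of each tested gene of the 8 lists, MYDGF with aristolochic acid over aristolochic acid (left) and aristolochic acid over untreated (right); AA is aristolochic acid. Red and blue points passed an edgeR adjusted p of 0.05, grey did not, and black bars are list medians; the cargo list has a median of 0.17 on the left and -0.39 on the right.

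The next list holds the COPI coat, which carries loaded receptors back, with the ARFs that recruit it and their regulators. Of these 17 genes, 9 fell, 1 rose and 7 did not pass the threshold with aristolochic acid against untreated cells (median -0.34). Of all genes tested, 29.3% fell and 29.7% rose there. COPG2, a gamma subunit of the coat, fell to 29.9 ± 7.93 CPM, against 78.5 ± 1.05 CPM in untreated cells (log2 fold change -1.39, edgeR adjusted p = 7.66e-05). ARF3 fell by 0.65, COPB1 by 0.65 and COPG1 by 0.64, and COPZ2 rose by 0.73, while the coat subunits ARCN1 (0.08) and COPZ1 (-0.07) did not pass; these 3 were named after their values were seen. Between the MYDGF group and aristolochic acid, 3 of the 17 rose and 1 fell (median 0.11), where 14.7% of all genes rose and 14.7% fell. With the size factors of DESeq2 in edgeR, 1 of the 17 rose and 2 fell. The count of 4 did not hold when libraries were left out: it was 9 without aristolochic acid 1, 1 each without aristolochic acid 6 and MYDGF 1, 2 without MYDGF 4, and 0 each without aristolochic acid 4 and MYDGF 3, where 5 genes each had an unadjusted p under 0.05.

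Among 16 SNAREs and tethers of retrograde traffic, 2 rose and 4 fell with aristolochic acid (median -0.08), where 29.7% of all genes rose and 29.3% fell. BNIP1, a SNARE of ER-bound vesicles, rose to 20.6 ± 1.57 CPM, against 11.3 ± 0.918 CPM in untreated cells (log2 fold change 0.86, edgeR adjusted p = 0.000197), while SEC22B, another SNARE of the route, fell by 0.76. Of 15 genes of the COPII coat, which carries cargo out of the ER, 7 fell and 3 rose (median -0.44), with SEC24D, a cargo adaptor, at -0.97 and PREB, the exchange factor that starts the coat, at -0.82. PREB rose in the MYDGF group against aristolochic acid by 0.47 (edgeR adjusted p = 0.00544), 1 of 4 called COPII genes, 2 of them higher and 2 lower. Without MYDGF 3 the count was 2. Of all genes, 14.7% rose and 14.7% fell between these groups. Of the SNAREs and tethers, STX18 and BET1 fell in that comparison, a count of 2 that was 1 each without aristolochic acid 4 and MYDGF 1, and 0 each without MYDGF 3 and MYDGF 4, where 2 and 3 had an unadjusted p under 0.05.

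Other cargo receptors of the early secretory pathway were also compared, 19 genes in all. With aristolochic acid against untreated cells 11 fell (median -0.34), where 29.3% of all genes fell and 29.7% rose. None of the 19 rose by edgeR with TMM scaling at an adjusted or an unadjusted p of 0.05. With the size factors of DESeq2, in edgeR as in DESeq2 itself, 1 was called higher and 10 lower. TMED1, of the p24 family, fell by 1.38 and ERGIC3 by 1.33 on the log2 scale; ERGIC3 averaged 80.7 ± 13.1 CPM, against 203.1 ± 14.2 CPM in untreated cells. LMAN1 (ERGIC-53), a lectin that carries glycoproteins, fell by 0.29, and RER1, which retrieves membrane proteins, did not pass the threshold (-0.63, SE 0.408), but did without aristolochic acid 1 (-1.27, edgeR adjusted p = 0.00684). SURF4, a receptor for soluble cargo, was counted at only 2.42 ± 0.455 CPM with aristolochic acid and 3.61 ± 0.230 CPM in untreated cells (-0.58, edgeR adjusted p = 0.033), a call that was lost without any 1 library except aristolochic acid 1. Between the MYDGF group and aristolochic acid ERGIC3 rose by 0.62 (edgeR adjusted p = 0.00607) and TMED5 by 0.57 (edgeR adjusted p = 0.0013), while CNIH1, TMED9 and ERGIC1, the last named after its value was seen, fell. This count of 5 was 2 without aristolochic acid 6, 2 without MYDGF 4 and 3 without MYDGF 3. Of all genes, 14.7% rose and 14.7% fell between the MYDGF group and aristolochic acid.

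Regulators of the unfolded protein response, whose factors act on the motifs above, were called in both directions. Of 13 tested, 4 rose and 3 fell with aristolochic acid (median 0.02), near the shares of all genes, 29.7% and 29.3%. XBP1 averaged 130.9 ± 24.3 CPM with aristolochic acid and 85.9 ± 15.8 CPM in untreated cells (log2 fold change 0.61, edgeR adjusted p = 0.00757), and DDIT3 (CHOP) rose by 0.90 and CREBRF by 0.97. ATF6B fell by 1.13 and MBTPS1, the protease that activates ATF6, by 0.65, and ATF6 itself was at -0.04. Between the MYDGF group and aristolochic acid the called genes were ATF6, at 35.4 ± 2.84 CPM against 55.8 ± 3.38 CPM (-0.66, edgeR adjusted p = 0.00502), and CREBRF, at 12.3 ± 1.42 CPM against 35.5 ± 10.6 CPM (-1.53, edgeR adjusted p = 0.00136), both lower. Of all genes, 14.7% were lower between these groups. The counts are per gene and do not show the spliced form of XBP1 mRNA.

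Of 10 genes of Golgi KDEL receptor signalling, 4 fell with aristolochic acid against untreated cells (median -0.37), where 29.3% of all genes fell. PRKACB, a catalytic subunit of protein kinase A, fell by 1.01, GNAS, the Gs alpha subunit, by 0.71, SRC by 0.58 and GNAQ by 0.29 on the log2 scale. GNAS averaged 555.6 ± 23.1 CPM in the MYDGF group and 394.8 ± 30.9 CPM with aristolochic acid (log2 fold change 0.49, edgeR adjusted p = 0.0107), and PRKACB and SRC also rose (0.34 and 0.29). That count of 3 was 1 each without aristolochic acid 4, MYDGF 1 and MYDGF 3, and 14.7% of all genes rose between these groups.

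The last list holds 7 genes that studies of MYDGF, mostly in the heart, place downstream of it. MAPK3 (ERK1) averaged 46.6 ± 0.723 CPM in the MYDGF group, 27.4 ± 3.44 CPM with aristolochic acid and 71.5 ± 2.37 CPM in untreated cells (SD, n = 3 each). It fell with aristolochic acid against untreated cells (log2 fold change -1.38, edgeR adjusted p = 7.39e-06) and was higher in the MYDGF group than with aristolochic acid (0.77, edgeR adjusted p = 0.00114). CCND1 (cyclin D1) averaged 511.0 ± 15.2, 777.4 ± 28.2 and 354.5 ± 13.7 CPM in the same order of groups, and rose with aristolochic acid (1.13, edgeR adjusted p = 2.86e-06) and fell in the MYDGF group against it (-0.61, edgeR adjusted p = 0.000355). PIM1, a kinase, averaged 84.3 ± 1.08, 62.9 ± 4.27 and 52.2 ± 2.57 CPM, and was higher in the MYDGF group than with aristolochic acid (0.42, edgeR adjusted p = 0.00343). ATP2A2, the calcium pump of the ER, rose by 0.31 in that comparison (edgeR adjusted p = 0.0144). In all, 4 of the 7 rose and 2 fell there (median 0.31), and with aristolochic acid against untreated cells 2 rose and 3 fell (median 0.00). Among the 4 was AKT1 (0.51), whose call was lost in 6 of the alternative settings. When each library was left out in turn, 4 to 6 of the 7 were called between the MYDGF group and aristolochic acid. Of all genes, 14.7% rose and 14.7% fell between the MYDGF group and aristolochic acid. With aristolochic acid against untreated cells 29.7% rose and 29.3% fell.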

How the data were processed

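Values are those the authors deposited: whole-number counts per gene, not normalized, and FPKM values, per the file headers. For 37792 genes with an FPKM above 0, FPKM, count and library total give 1 length per gene within 0.1%. For some genes, such as HSPA5, P4HB, HSP90B1 and PDIA3, this length exceeds the gene span. The submitters' processing notes name CASAVA 1.8, HISAT2, SAMtools 1.3.1, edgeR and the mouse build mm10. Not given in the sources used here are the counting tool, annotation, strand setting and handling of shared reads. The table lists human Ensembl IDs, of which 92.9% were found in GENCODE 29, and 99.8% of those overlap that gene on GRCh38, so positions are read as GRCh38. Genes without a symbol took 1.44 to 1.87% of counts.

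Here, edgeR 4.0.16 in R 4.3.3 scaled counts with TMM, kept genes by filterByExpr (minimum count 10, minimum total 15) and fitted 3 groups over 9 libraries by quasi-likelihood (6 residual degrees of freedom, biological coefficient of variation 16.4%). Calls are at an adjusted p of 0.05. The step was also run on simulated counts, in which far fewer genes changed than were called with aristolochic acid. That run does not show how the step performs when so many genes differ. Within-group pairs differed by 8.79 to 17.9 times the sampling variance, so no pair was merged as 1 library deposited in duplicate. Log2 CPM uses a prior count of 2. Pattern likeness and motif searches were run in Python 3.11.15.

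The members and the lists were chosen with earlier results of these data known. Named genes are the members, their neighbours, the 5 genes nearest in pattern, 13 cargo, receptor and stress genes always given, and up to 4 called genes with the largest change per list and comparison at a mean of at least 5 CPM. Not all are printed above. For MYDGF over aristolochic acid, those left out include ARFGAP1 (log2 fold change 0.73), SEC13 (0.62), ERP29 (0.55), P3H1 (0.53), SAR1B (-0.32) and MIA2 (-0.25). In the order listed, their calls were lost in 9, 2, 3, 4, 2 and 7 of the alternatives. Alternatives were other scaling, no filter, DESeq2 1.42.0, 6 libraries only, each library left out and a replicate block.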

Additional observations from a re-analysis of the deposited data

How the results depend on the processing

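All alternatives were planned. Between AA (aristolochic acid) and untreated cells, leaving out each library in turn gave 9936 to 11347 called genes and 74 to 81 called list genes. Between MYDGF with AA and AA it gave 3504 to 6614 genes, 19 to 53 list genes, and 5 to 18 for cargo, 0 to 9 for COPI, 0 to 3 for SNAREs and tethers, 2 to 6 for COPII, 2 to 5 for other cargo receptors and 1 to 4 for Golgi signalling; the lowest value over all genes came without MYDGF 3. Between MYDGF with AA and untreated cells it gave 7894 to 8795 genes and, for Golgi signalling, 2 to 6 against 5. For the members it moved KDELR3 to between 0.52 and 1.01 over AA and -3.45 and -2.95 over untreated cells, and KDELR2 to between -0.13 and -0.05 over untreated cells, the last value without MYDGF 4. MYDGF and KDELR1 moved by less than their replicate SD.

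Same-numbered libraries did not deviate together more than others here: deviations of the 5 same-numbered pairs correlated at -0.165 to 0.018, and of 22 other pairs at -0.141 to 0.181. So few pairs, with deviations taken from means of 3 libraries, cannot settle whether the numbers pair the samples. With the number as a replicate block (2 residual degrees of freedom) edgeR called 5062 genes for AA, 14 for MYDGF over AA and 5446 for MYDGF over untreated cells, and 38, 0 and 47 list genes; 34 list genes had an unadjusted p under 0.05 in the second. For AA it called 15 cargo, 6 COPI, 3 SNARE, 5 COPII, 3 other receptor, 0 stress regulator (6 unadjusted) and 3 MYDGF-linked genes; for MYDGF over AA, 0 in each list; and for MYDGF over untreated cells, 4 SNARE, 4 COPII, 6 other receptor, 4 stress regulator and 2 Golgi signalling genes. Without the filter, MYDGF over AA gave 23 list genes, with 1 COPI, 1 SNARE, 2 other receptor and 1 Golgi signalling gene among them. With only the 6 libraries compared these were 1, 1, 3 and 1. The block fit left fewer degrees of freedom and the 6-library fits held fewer samples, while the fit without the filter used all 9 libraries. The cause of these differences was not tested.

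DESeq2 and the other scalings kept the total of every list within 1.5 times, though higher and lower calls shifted for MYDGF over AA (for COPI 1 and 2 with DESeq2 size factors in edgeR, against 3 and 1), and scaling moved the median of all genes by at most 0.04 on the log2 scale. Of 2740 values for 76 named genes, 2483 stayed on their side of the threshold, 219 lost a call, 34 gained one and 4 likeness lists changed; none reversed. KDELR3 had 37 to 110 counts in treated libraries, the lowest depth behind any member.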

Other observations

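Some genes of the route split within a group of libraries, and 3 of them were picked for this after their values were seen. RER1, which returns membrane proteins to the ER, stood at 170.5, 76.0 and 166.1 CPM in the MYDGF libraries 1, 3 and 4, 187.9, 73.0 and 66.0 CPM in the toxin-only libraries 1, 4 and 6, and 164.5, 167.5 and 175.7 CPM in untreated cells, so that 3 treated libraries lay well under the other 6. SAR1A, the GTPase that starts COPII coats, stood at 194.7, 94.1 and 92 CPM in the MYDGF group, 204.8, 188.9 and 176.0 CPM with the toxin only, and 248.6, 258.5 and 265.6 CPM in untreated cells. YES1, a Src family kinase, stood at 110.9, 98.9 and 110.6 CPM in the MYDGF group, 255.3, 114.6 and 105.9 CPM with the toxin only, and 276.4, 110.4 and 280.9 CPM in untreated cells. The low libraries differ from gene to gene, and the cause of the split was not tested.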
